A study of Mus musculus with 6 samples.

Results

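The 10 genes described here encode transcription factors of the lateral and caudal ganglionic eminences, a receptor and a calcium-binding protein that mark the interneurons of the olfactory bulb: Sp8, Sp9, Six3, Tshz1, Prokr2, Pbx3, Meis2, Vax1, Scgn and Zfhx3. They were chosen by symbol, each matched 1 row, and together they are 10 of 55416 genes in the table of counts. Total RNA of the ganglionic eminences, the neuron-forming swellings of the ventral forebrain, was sequenced from E13.5 mice (E, embryonic day). The Dlx1/Dlx2 double knockout and its wild-type littermates gave 3 libraries each. DLX1 and DLX2 are homeodomain proteins of subpallial progenitors, and their genes lie side by side. The labels name no strain, allele, sex or agent, do not say which of the eminences were dissected, and do not say whether a library is 1 embryo or a pool. The p-values below therefore measure the spread between these libraries. The study's title names DLX factors, Notch signalling and neural cell fate. The comparison asked here is which of the 10 genes differed in the absence of Dlx1 and Dlx2.

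Interneurons of the olfactory bulb are born in the dorsal part of the lateral ganglionic eminence and its postnatal derivative, the subventricular zone, and migrate tangentially to the bulb, where they become granule and periglomerular cells. The paralogous zinc-finger factors SP8 and SP9 act in these neuroblasts, and TSHZ1 and the prokineticin receptor PROKR2 are known to act downstream of them in migration. PBX3 and MEIS2 are homeodomain proteins of the TALE class that bind DNA with partner factors, and SIX3, VAX1 and ZFHX3 carry homeodomains of other classes. Secretagogin, encoded by Scgn, is a calcium-binding protein of the EF-hand family found in migrating neuroblasts of the bulb.

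Sp8, Scgn, Vax1 and Meis2 fell in the double knockout, and the other 6 genes did not pass the test. Sp8 kept 30.4% ± 9.78 (SD, n = 3) of its wild-type level and Scgn kept 35.8% ± 7.94. The decreases of Vax1, to 62.6% ± 4.45, and of Meis2, to 73.3% ± 4.21, were smaller. Sp9, the paralogue of Sp8, was at 87.9% ± 9.93 of its wild-type level. All 10 genes passed the filter on low counts. The call rested on edgeR's quasi-likelihood test, with p-values adjusted by Benjamini-Hochberg over all 23628 tested genes and a threshold of 0.05. By that rule 2.68% of all tested genes were called, 1.34% lower and 1.34% higher, against 4 of the 10, all lower. None of the 10 was called higher by edgeR, by DESeq2 or by limma-voom, and 1, Zfhx3, was higher at an unadjusted p under 0.05. The 3 double knockout libraries lay apart from the 3 wild-type libraries for the same 4 genes, as for 19.5% of all tested genes. The median log2 fold change of the 10 genes was -0.11, beside -0.0016 over all tested genes, and 7 of the 10 were below 0.

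**Figure D1:**
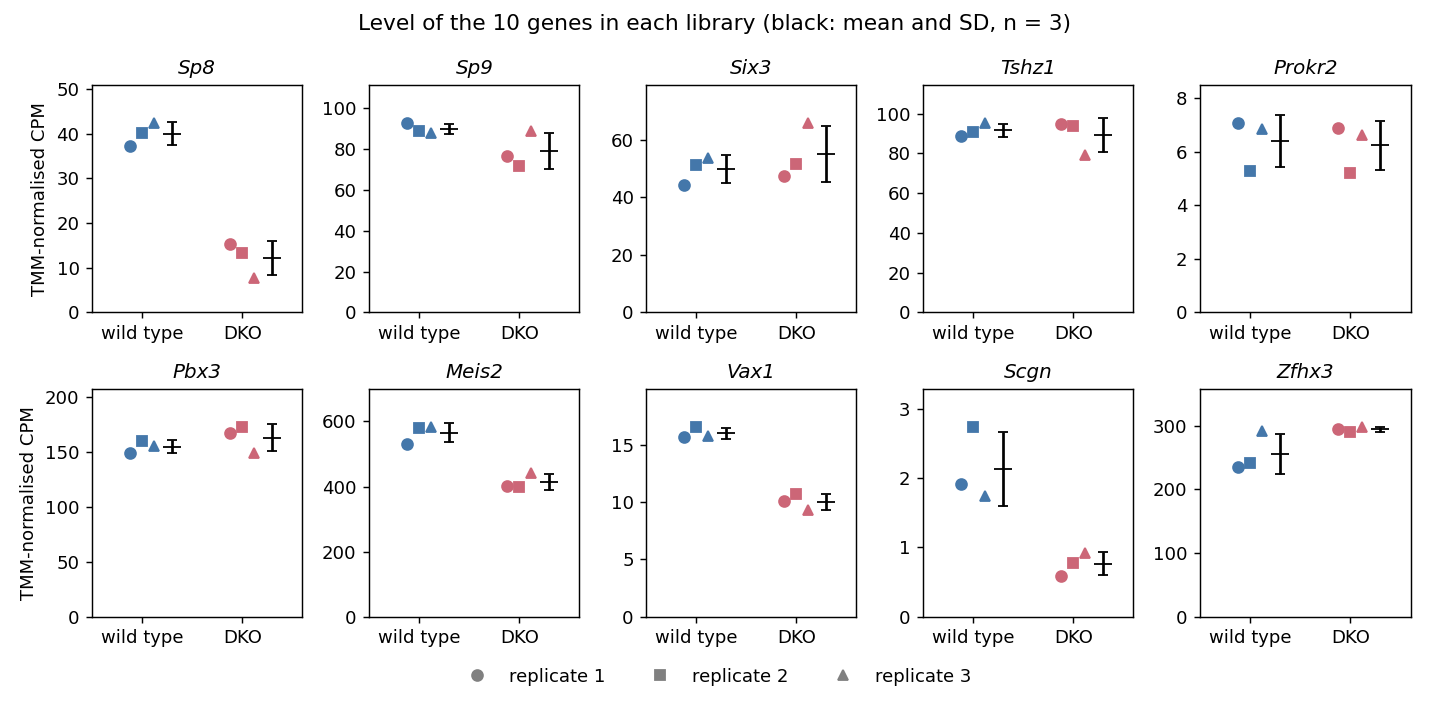
Level of each of the 10 genes as CPM, the count scaled to library size with TMM, a trimmed-mean correction for library composition (vertical axes start at 0), in the 3 wild-type libraries (blue) and the 3 double knockout libraries (DKO, red), with the mean and SD beside each group (n = 3). Sp8, Meis2, Vax1 and Scgn show no overlap between genotypes, and the other 6 panels overlap.

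The deposited files hold no sequence, so the windows around the transcription starts were taken from RefSeq (build GRCm38.p6), from 250 bases before to 50 bases after each start. Entries were found for 8 of the 10 genes, with 3 starts for Sp8, and Tshz1 and Pbx3 had none. The windows of the 4 genes that fell and of Sp9, the paralogue that was not called, are given 5′ to 3′ on the strand of the gene. Capitals mark 2 motifs, searched on both strands: TAATTA, a core sequence bound by many homeodomain proteins including the DLX family, which reads the same on both strands, and GGGCGG, the GC box bound by Sp-family factors, which appears as CCGCCC when it lies on the other strand. The motifs cannot overlap each other.
Sp8 start 2, chr12:118846983-118847282, plus strand: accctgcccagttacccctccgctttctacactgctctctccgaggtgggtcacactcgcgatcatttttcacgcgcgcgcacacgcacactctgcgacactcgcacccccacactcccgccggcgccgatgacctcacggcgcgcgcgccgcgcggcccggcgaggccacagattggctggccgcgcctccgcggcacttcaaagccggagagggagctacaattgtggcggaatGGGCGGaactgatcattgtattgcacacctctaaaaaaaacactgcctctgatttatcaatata
Sp8 start 3, chr12:118847309-118847608, plus strand: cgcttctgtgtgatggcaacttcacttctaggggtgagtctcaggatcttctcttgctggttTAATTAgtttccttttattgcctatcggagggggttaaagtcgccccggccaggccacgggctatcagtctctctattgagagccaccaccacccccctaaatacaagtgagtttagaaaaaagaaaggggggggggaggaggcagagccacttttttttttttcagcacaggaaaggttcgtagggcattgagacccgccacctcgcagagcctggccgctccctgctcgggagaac
Sp9, chr2:73271676-73271975, plus strand: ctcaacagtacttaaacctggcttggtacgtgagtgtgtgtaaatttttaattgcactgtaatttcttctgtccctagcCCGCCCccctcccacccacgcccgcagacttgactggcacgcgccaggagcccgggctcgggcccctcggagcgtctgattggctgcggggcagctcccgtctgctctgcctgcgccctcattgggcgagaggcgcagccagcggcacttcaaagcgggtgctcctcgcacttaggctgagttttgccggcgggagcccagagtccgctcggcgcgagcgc
Vax1, chr19:59170348-59170647, minus strand: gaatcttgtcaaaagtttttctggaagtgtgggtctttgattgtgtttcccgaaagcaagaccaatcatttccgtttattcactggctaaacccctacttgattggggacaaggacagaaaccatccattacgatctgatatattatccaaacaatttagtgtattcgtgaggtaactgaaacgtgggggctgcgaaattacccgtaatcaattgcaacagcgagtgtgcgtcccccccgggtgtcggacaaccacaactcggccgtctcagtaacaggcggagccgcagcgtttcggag
Scgn, chr13:23991165-23991464, minus strand: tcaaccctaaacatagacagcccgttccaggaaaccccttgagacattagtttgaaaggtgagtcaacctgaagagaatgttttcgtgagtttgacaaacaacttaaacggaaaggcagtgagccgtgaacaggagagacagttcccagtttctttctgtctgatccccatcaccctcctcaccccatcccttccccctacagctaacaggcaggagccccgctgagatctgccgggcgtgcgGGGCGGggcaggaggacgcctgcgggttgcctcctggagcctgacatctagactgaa
Meis2, chr2:116064570-116064869, minus strand: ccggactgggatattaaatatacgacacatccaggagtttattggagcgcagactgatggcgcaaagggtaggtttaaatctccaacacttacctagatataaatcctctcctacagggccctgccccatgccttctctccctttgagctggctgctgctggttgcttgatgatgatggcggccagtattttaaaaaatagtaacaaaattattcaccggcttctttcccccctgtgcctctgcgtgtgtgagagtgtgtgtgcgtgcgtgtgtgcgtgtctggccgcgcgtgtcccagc
TAATTA occurred in 1 of the 10 windows of these genes, that of start 3 of Sp8, where it begins at position -188 relative to the start. It occurred in 5.29% of the 32851 windows of this length in the RefSeq table. The GC box occurred in 35.7% of all windows and, among the genes printed, once each in those of Sp8 start 2, Sp9 and Scgn. The windows of Vax1, Meis2 and Sp8 start 1, the last not printed, held neither motif. A match is a description of the letters and not a binding site.

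Libraries were deep, with 56618090 to 70114173 counts each, so that 3 reads in a library equalled 0.0432 to 0.052 CPM. Dlx1 fell from 438.9 ± 6.12 to 81.6 ± 10.8 CPM and Dlx2 from 295.7 ± 16.1 to 8.68 ± 1.99 CPM (SD, n = 3 each), so no library went against its label. General markers of ventral forebrain neurons and progenitors (6 genes, among them Gad1, Gad2, Dlx5, Dlx6 and Slc32a1) were present in every library, with summed levels of 787.6 to 859.0 CPM in wild-type tissue, compared with 413.3 to 504.6 CPM in the double knockout, where 5 of the 6 were called lower. The 7 markers of the lateral eminence and striatum also moved, from 1132 to 1191 CPM in wild-type tissue to 743.4 to 865.0 CPM, with 5 called lower, Ebf1, Zfp503, Rarb, Foxp1 and Bcl11b, and 2 higher, Isl1 and Gsx2. The part of these shifts in the decreases of Sp8, Scgn, Vax1 and Meis2 was not tested. Slc32a1 overlaps a gene on the opposite strand over 697 of 2797 bases, and Rarb overlaps 2 over 2020 of 5265 bases, so their counts are uncertain. Foxp1 and Lhx6 share 435 and 104 bases with genes on the same strand, and Prox1 shares 133 bases with a gene on the opposite strand. Markers of the pallium (8 genes) summed to 924.4 to 945.0 CPM and 717.0 to 749.2 CPM, so cortical RNA was present in both groups. Those of the diencephalon and midbrain (6 genes) summed to 81.0 to 96.0 CPM in the wild type and 105.0 to 144.4 CPM in the double knockout, with 1 called higher. Double knockout replicate 3 stood apart in some regional markers. Its level of Nr2f2, a marker of the caudal eminence whose exons overlap a gene on the opposite strand, was 0.333 of the mean of the other double knockout libraries, and its levels of Fezf1 and Sim1 were 0.244 and 0.157 of theirs. Otp, Hmx3 and Foxd1, the other tested markers of the hypothalamus, preoptic area and eye field, were at 1.03, 0.935 and 0.725. The medial eminence genes Lhx6, Lhx8 and Nkx2-1 were higher in replicate 3, at 1.53, 1.56 and 1.33 of the mean of the others, as were the caudal markers Prox1 and Htr3a, at 1.24 and 1.37. The caudal marker Nr2f1, which also overlaps a gene on the opposite strand, was at 0.843. The 4 caudal markers together spanned 630.3 to 886.1 CPM in the double knockout, with replicate 3 lowest mainly through Nr2f2, and 674.5 to 756.3 CPM in the wild type. Prox1 was the 1 caudal marker called, higher at 169.5 ± 22.2 against 87.1 ± 7.77 CPM. Wild-type replicate 1 held 26.3 CPM of the choroid plexus gene Ttr, against at most 0.156 CPM in any other library. RNA of Y-linked genes was high in wild-type replicate 1 and in double knockout replicates 2 and 3, at 7.70, 7.75 and 7.73. These values are the log2 of summed CPM, without TMM, plus 1. The other libraries were at most at 0.224, so the groups were not balanced in it. Without wild-type replicate 1, no wild-type library rich in this RNA remained.

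Sp8 (ENSMUSG00000048562, chromosome 12), a zinc-finger factor needed for the formation of several classes of olfactory bulb interneuron, changed most. It was at 37.3, 40.2 and 42.4 CPM in wild-type replicates 1 to 3 and at 15.3, 13.4 and 7.78 CPM in double knockout replicates 1 to 3. No double knockout library reached the wild-type range, and replicate 3 was lowest, at 0.543 of the mean of the other 2 double knockout libraries. This was a log2 fold change of -1.72 (SE 0.211, 95% interval -2.20 to -1.24), for which edgeR gave an adjusted p of 0.00362. The spread among double knockout libraries was wide, with a coefficient of variation of 32.1% against 6.41% in the wild type. Without double knockout replicate 3, the library that was also low in Nr2f2, the log2 fold change was -1.47 and edgeR's adjusted p was 1.00e-04. Sp8 and Nr2f2 are both active in the caudal eminence, and whether the makeup of that library had a part in its low Sp8 was not tested. In bulk tissue, fewer cells of a type and less RNA per cell cannot be told apart.

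Sp9 (ENSMUSG00000068859, chromosome 2), whose product acts beside SP8 in bulb neuroblasts and is also used by striatal neurons, was at 92.8, 88.6 and 87.9 CPM in the wild type. In the double knockout it was at 76.6, 71.5 and 88.8 CPM. Double knockout replicate 3, the lowest library for Sp8, was the highest of its group for Sp9 and lay within the wild-type range. Sp9 had a fitted log2 fold change of -0.18 (SE 0.0772, 95% interval -0.36 to -0.01), and the adjusted p of 0.346 in edgeR's test missed the threshold. Without double knockout replicate 3, Sp9 was called lower, with a log2 fold change of -0.27 and an adjusted p of 0.0262 in edgeR. Over 14 alternative settings the adjusted p of Sp9 ranged from 0.0262 to 0.685. Exons of Sp9 overlap those of Cir1 on the opposite strand over 270 of 5044 bases in GENCODE M21, so its counts are uncertain if counting ignored strand.

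The reads of Sp8 amounted to 40.2%, 45.3% and 48.2% of the reads of Sp9 in the wild-type libraries. In the double knockout the share was 20.0%, 18.7% and 8.76%, without overlap. The log2 ratio differed by -1.58 between genotypes. An exact two-sided permutation test over the 6 libraries gave p = 0.1, the smallest that 3 against 3 can give, and an adjusted p of 0.15 over the 3 ratios tested. With 3 libraries a group, this test cannot reach 0.05.

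**Figure D2:**
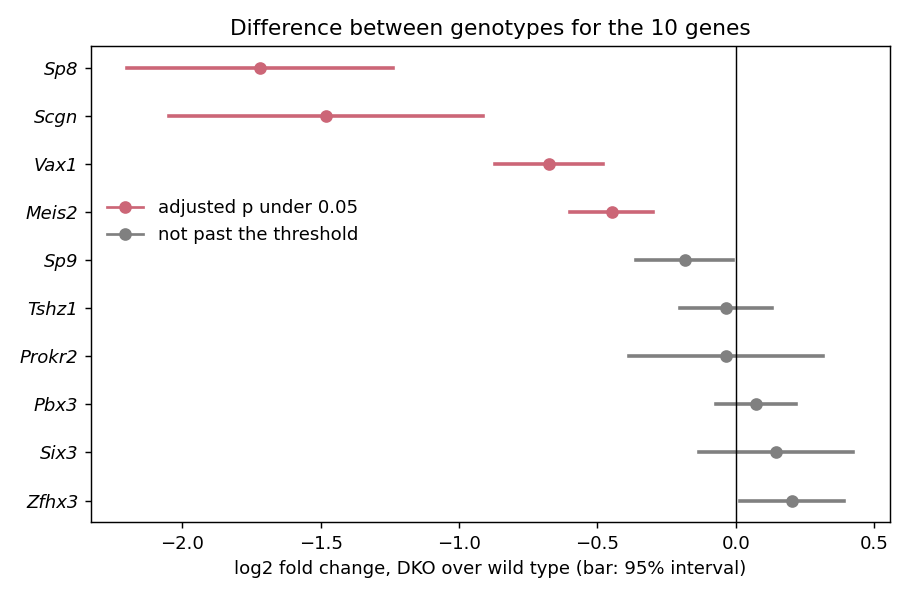
Log2 fold change of the double knockout (DKO) over the wild type for each of the 10 genes, with the 95% interval from edgeR's quasi-likelihood fit, ordered from the largest decrease at the top. Sp8, Scgn, Vax1 and Meis2 (red) passed an adjusted p of 0.05, and the interval of Sp9 ends just below 0.

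Tshz1 and Prokr2, the genes known to act after Sp8 and Sp9 in neuroblast migration, did not pass the test. Tshz1 (ENSMUSG00000046982, chromosome 18), a teashirt zinc-finger factor, was at 88.8, 90.6 and 95.4 CPM in the wild-type libraries and 94.8, 93.9 and 79.5 CPM in those of the double knockout. Its groups overlapped, with double knockout replicate 3 lowest of all 6 libraries. The difference was a log2 fold change of -0.04 (95% interval -0.20 to 0.13, edgeR adjusted p = 0.903), and it was 0.05 without that replicate. Prokr2 (ENSMUSG00000050558, chromosome 2), a G protein-coupled receptor for the secreted prokineticins, was at 7.08, 5.29 and 6.84 CPM in the wild type. Its double knockout levels were 6.89, 5.20 and 6.65 CPM, and the groups overlapped. Prokr2 had a log2 fold change of -0.03 (95% interval -0.39 to 0.32, edgeR adjusted p = 0.958), with its sign turned by leaving out wild-type replicate 1 or 3 or double knockout replicate 2 (0.04, 0.02 and 0.08). The log2 ratio of Prokr2 to Tshz1 was -3.85 ± 0.229 in the wild type and -3.85 ± 0.302 in the double knockout (SD, n = 3; exact permutation p = 1).

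The ligand Prok2 was low in all libraries, at 0.448 ± 0.129 CPM in the wild-type libraries and 0.981 ± 0.439 CPM in those of the double knockout (edgeR adjusted p = 0.213). Prokr1, the paralogous receptor, was at 10.9 ± 0.202 and 11.98 ± 1.10 CPM (edgeR adjusted p = 0.616).

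Of the TALE factors, Meis2 fell and Pbx3 did not pass the test. Meis2 (ENSMUSG00000027210, chromosome 2), a partner of PAX6 in the dopaminergic fate of periglomerular cells and also abundant in striatal neurons, was at 531.1, 580.5 and 582.9 CPM in the wild type. It was at 401.2, 399.1 and 441.3 CPM in the double knockout, and the groups did not overlap. Meis2 had a log2 fold change of -0.45 (SE 0.0656, 95% interval -0.60 to -0.30, edgeR adjusted p = 0.00895). The call was lost without double knockout replicate 2, at an adjusted p of 0.0502 in edgeR with a log2 fold change of -0.42. Pbx3 (ENSMUSG00000038718, chromosome 2) was at 148.3, 160.1 and 155.3 CPM in the wild-type libraries and 166.9, 172.4 and 148.7 CPM in those of the double knockout. Its groups overlapped, and the log2 fold change of 0.07 (95% interval -0.07 to 0.22) had an adjusted p of 0.721 in edgeR. Without double knockout replicate 3 it was 0.14, also not called. Meis2 had 358.1% to 375.3% of the reads of Pbx3 in wild-type tissue, compared with 231.5% to 296.7% in the double knockout, again at the smallest exact permutation p of 0.1.

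Of the homeodomain factors of other classes, Vax1 fell and Six3 and Zfhx3 did not pass the test. Vax1 (ENSMUSG00000006270, chromosome 19), a ventral anterior homeobox factor that patterns the optic stalk, preoptic area and basal forebrain, was at 15.7, 16.6 and 15.9 CPM in the wild type. In the double knockout it was at 10.2, 10.7 and 9.30 CPM. The groups were well separated and tight, with coefficients of variation of 2.96% and 7.11%. Vax1 had a log2 fold change of -0.68 (SE 0.0852, 95% interval -0.87 to -0.48), with an adjusted p of 0.00414 in edgeR, and the call held in all 14 alternative settings, with an adjusted p of at most 0.0246. Sp8 was the other of the 4 genes called in all 14.

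Six3 (ENSMUSG00000038805, chromosome 17), a factor of the anterior forebrain and eye that is active in the lateral eminence, was at 44.3, 51.3 and 53.6 CPM in the wild-type libraries and 47.5, 51.6 and 65.8 CPM in those of the double knockout. Only double knockout replicate 3 lay above the wild-type range. The mean difference was a log2 fold change of 0.15 (95% interval -0.13 to 0.42, edgeR adjusted p = 0.711). It was 0.0014 without that replicate and 0.07 without wild-type replicate 1. Exons of Six3 overlap 2 genes on the opposite strand, Six3os1 and Gm28528, over 274 of 5446 bases, so its counts are uncertain too. Zfhx3 (ENSMUSG00000038872, chromosome 8), a large zinc-finger homeobox factor of differentiating neurons, was at 234.1, 241.1 and 291.0 CPM in the wild type. It was at 294.3, 289.9 and 297.6 CPM in the double knockout. Wild-type replicate 3 reached the double knockout range and the other wild-type libraries did not. Zfhx3 had a log2 fold change of 0.20 (95% interval 0.02 to 0.39), with an adjusted p of 0.324 in edgeR. Without wild-type replicate 3, Zfhx3 was called higher, with a log2 fold change of 0.31 and an adjusted p of 0.0478 in edgeR.

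Vax1 and Six3 are also active in the preoptic area, hypothalamus and eye field. The 8 markers of those regions summed to 26.7 to 48.2 CPM in wild-type tissue, compared with 137.8 to 173.2 CPM in the double knockout, and 2 of them, Otp and Hmx3, were called higher. Most of the difference was Otp, at 9.44 ± 3.63 CPM in the wild type against 118.4 ± 4.78 CPM, whereas Fezf1, Sim1 and Foxd1 were not called. The eye-field gene Rax, which overlaps a gene on the opposite strand, and the hypothalamic gene Nkx2-4 had at most 3 reads in every library. Their part in the levels of Vax1 and Six3 was not tested.

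Scgn (ENSMUSG00000021337, chromosome 13) was the least counted of the 10 genes, with 112, 176 and 112 reads in the wild-type libraries and 38, 45 and 64 in the double knockout. These counts correspond to 1.91, 2.74 and 1.75 CPM and to 0.585, 0.781 and 0.923 CPM. The groups did not overlap, and wild-type replicate 2 was highest. Scgn had a log2 fold change of -1.48 (SE 0.249, 95% interval -2.05 to -0.91, edgeR adjusted p = 0.0174). The call was lost without wild-type replicate 2 (edgeR adjusted p = 0.0631), without double knockout replicate 1 (0.0659) or 2 (0.0599), and with Y-linked expression as a covariate (0.0588), while the log2 fold change stayed between -1.64 and -1.26 over the 14 settings.

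**Figure D3:**
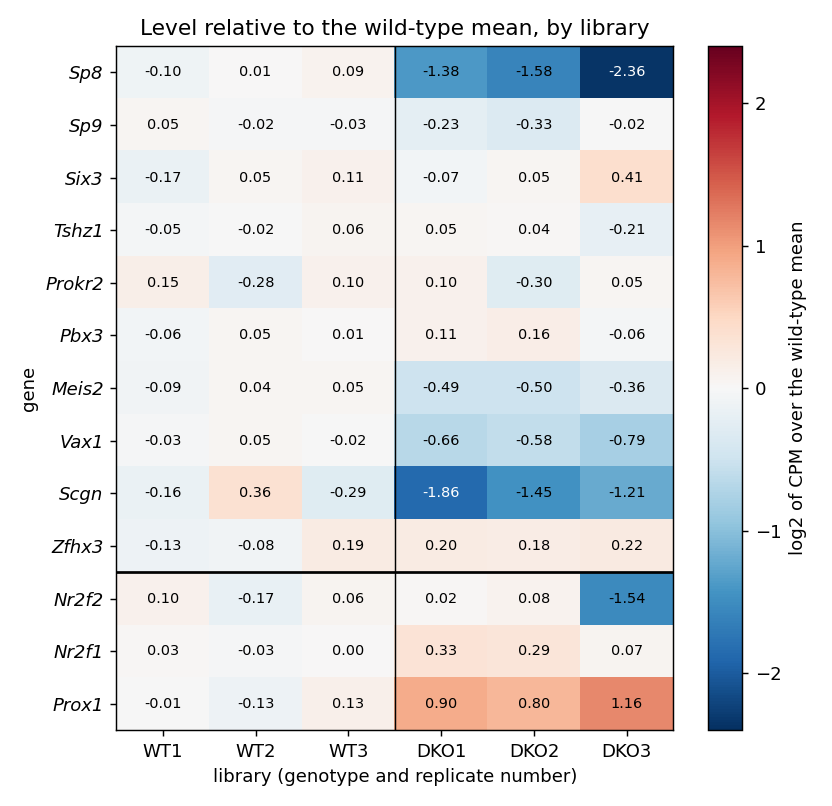
Log2 of the CPM of each library over the wild-type mean, for the 10 genes (above the line) and for 3 markers of the caudal eminence (below it), with libraries in columns. Sp8, Vax1, Scgn and Meis2 are low in all 3 double knockout libraries. Double knockout replicate 3 (DKO3) has the lowest Sp8 (-2.36) and Nr2f2 (-1.54) and the highest Six3 (0.41).

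Levels of different genes were compared per kilobase of exons, as annotated in GENCODE M21, which need not be the authors' annotation. In the wild type Meis2 was highest, at 46.9 ± 2.43 CPM per kilobase, followed by Pbx3 at 25.3 ± 0.968, Sp9 at 17.8 ± 0.525 and Tshz1 at 15.7 ± 0.587 (SD, n = 3). Vax1 at 14.4 ± 0.426 and Zfhx3 at 12.2 ± 1.48 CPM per kilobase came next, then Six3 at 9.13 ± 0.893 and Sp8 at 8.77 ± 0.562. The last were Scgn at 1.32 ± 0.328 and Prokr2 at 0.809 ± 0.123 CPM per kilobase. Six3 and Sp8 were the only neighbours in this order whose wild-type libraries overlapped. The place of Vax1 is uncertain, since its annotated exons span 1.117 kilobases, the shortest of the 10. In the double knockout, Meis2 at 34.4 ± 1.98 and Pbx3 at 26.6 ± 2.02 CPM per kilobase remained highest. Sp9, Tshz1 and Zfhx3, at 15.7 ± 1.77, 15.3 ± 1.47 and 14.0 ± 0.184, came next, where Sp9 overlapped Tshz1 and Tshz1 overlapped Zfhx3. Six3 at 10.1 ± 1.77 and Vax1 at 9.00 ± 0.640 also overlapped. Sp8, at 2.67 ± 0.857 CPM per kilobase, was well below them, and Scgn at 0.471 ± 0.105 was below Prokr2 at 0.789 ± 0.115.

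Other genes of bulb interneurons and of the dorsal lateral eminence were taken from a list of 25, all of which were tested. Of these, 11 were lower, 3 were higher and 11 did not pass edgeR's test, beside 1.34% lower and 1.34% higher of all tested genes. The median log2 fold change of the 25 was -0.25. The list is not particular to the bulb. Among its called genes, Dlx5, Dlx6, Gad1 and Gad2 were also counted above as general markers of the ventral forebrain. Bcl11b and Gsx2 were also counted as markers of the lateral eminence and striatum. The largest decreases were those of the homeobox genes Dlx5 (-2.93, SE 0.0854) and Dlx6 (-2.55, SE 0.0926) and of the opioid receptor gene Oprm1 (-2.33, SE 0.28). Dlx6, Oprm1 and Zic1 each overlap a gene on the opposite strand, over 104, 96 and 60 bases of exon. The dopamine-synthesis gene Th, a marker of periglomerular cells, was also among the 11, as were Gad1, Gad2, Bcl11b, Calb1, Foxp2 and Foxp4. The 3 that rose were transcription factor genes. Sall3, needed for the dopaminergic periglomerular fate, rose from 81.4 ± 6.63 to 155.5 ± 11.8 CPM (log2 fold change 0.93, SE 0.0755, edgeR adjusted p = 4.13e-04). The progenitor factor Gsx2, which specifies the dorsal lateral eminence, rose from 23.5 ± 2.17 to 36.6 ± 5.21 CPM. Zic1, a factor of septal and bulb-fated progenitors, rose from 149.6 ± 35.5 to 251.4 ± 20.8 CPM. The call of Gsx2 was lost without wild-type replicate 1 or 2, and that of Zic1 without wild-type replicate 1 or 2 or double knockout replicate 1 or 2, with highest adjusted p of 0.0969 and 0.14 in edgeR. Both were also lost with Y-linked expression as a covariate, at 0.0688 and 0.054 in edgeR. Pax6, the partner of Meis2, was at 73.8 ± 7.11 and 72.5 ± 3.71 CPM (edgeR adjusted p = 0.93).

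**Figure D4:**
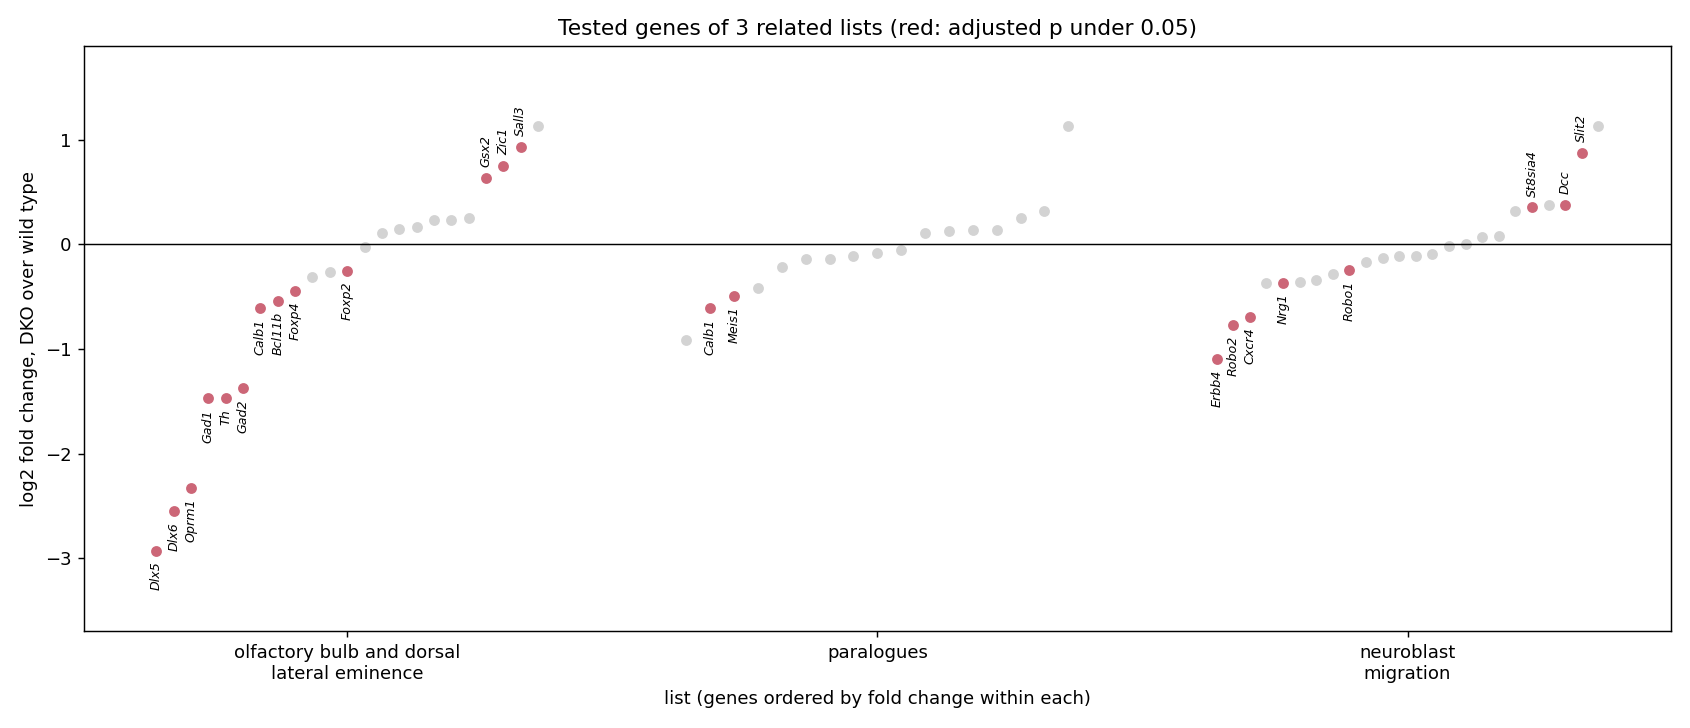
Log2 fold change of the double knockout over the wild type for tested genes of 3 lists, ordered within each list, with called genes in red and named. Plotted are 23 genes of the bulb and dorsal lateral eminence list and 24 of the neuroblast migration list. The list of paralogues, with relatives of the 10 genes and prokineticin ligands, has 17 plotted. Called genes reach -2.93 (Dlx5) in the bulb list, whereas 2 of the plotted genes of the paralogue list were called.

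A list of 21 genes, called the paralogues here, held paralogues and close relatives of the 10 genes and the prokineticin ligands of PROKR2. Of the 21, 18 passed the filter, and 2 of them were lower, beside 1.34% of all tested genes. The lists share genes: Calb1, lower here, was also among the 11 lower genes of the bulb list. Prok2 is in the bulb and migration lists too. Meis1, a paralogue of Meis2, fell from 75.6 ± 6.14 to 53.7 ± 6.51 CPM (log2 fold change -0.49, SE 0.0948, edgeR adjusted p = 0.0322). Another gene overlaps Meis1 on each strand, so its counts are uncertain. Calb1, an EF-hand relative of Scgn, fell from 25.0 ± 1.61 to 16.4 ± 2.86 CPM (log2 fold change -0.61, SE 0.127, edgeR adjusted p = 0.0442). Both calls depended on single libraries: Meis1 lost it without any 1 of the wild-type replicates or without double knockout replicate 1 (highest adjusted p 0.12 in edgeR), and Calb1 without any 1 library other than double knockout replicate 3 (highest 0.161). Both were also lost with total count scaling and with the Y-linked covariate, and Calb1 with a filter at 1 CPM. No gene of this list was called higher by edgeR, DESeq2 or limma-voom, and 1, the ligand gene Prok2, was higher at an unadjusted p under 0.05. The TALE factor Meis3, with a log2 fold change of -0.22, had an edgeR adjusted p of 0.0901. Six6 and Vax2 were among those that did not pass the filter.

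In a list of 24 genes of neuroblast migration, all tested, 5 were lower and 3 higher, beside 1.34% of all tested genes each way. The median log2 fold change of the 24 was -0.11. The neuregulin receptor gene Erbb4, active in migrating bulb neuroblasts, fell most, from 149.0 ± 12.5 to 69.9 ± 3.99 CPM (log2 fold change -1.09, SE 0.0713, edgeR adjusted p = 1.15e-04). The Slit receptor gene Robo2 fell from 333.4 ± 14.7 to 195.8 ± 8.84 CPM (log2 fold change -0.77), and the ligand gene Slit2 rose from 44.4 ± 3.73 to 81.6 ± 11.4 CPM (log2 fold change 0.88, SE 0.104). The chemokine receptor gene Cxcr4 and the ligand gene Nrg1 had log2 fold changes of -0.69 and -0.37. The netrin receptor gene Dcc and the polysialyltransferase gene St8sia4 rose, with log2 fold changes of 0.38 and 0.35. Robo1 was the remaining gene that fell. Nrg1 overlaps a gene on the opposite strand, which makes its counts uncertain. Cxcr4 lost its call without double knockout replicate 1 (edgeR adjusted p = 0.0537). Dcc lost it without wild-type replicate 1 or 2 or double knockout replicate 1 or 2 (highest 0.0897), St8sia4 without any 1 library other than double knockout replicate 3 (highest 0.17), and Nrg1 without any 1 library other than wild-type replicate 1 (highest 0.156). St8sia4 and Nrg1 also lost their calls with total count scaling, a filter at 1 CPM and the Y-linked covariate, and St8sia4 with limma-voom. Dcx, the microtubule gene of all migrating neuroblasts, was at 1928 ± 98.5 and 1494 ± 156.9 CPM (edgeR adjusted p = 0.0738).

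For each of the 4 genes that fell, the genes nearest in pattern were sought among 16487 tested genes that averaged 1 CPM or more. The measure was the root mean square difference of log2 levels relative to the wild-type mean over the 6 libraries. To each level 0.5 CPM was added before the log2, which shrinks differences at low levels such as those of Scgn and Oprm1. Nearest to Sp8 were Gm39244, an unnamed gene model, and Oprm1, at differences of 0.196 and 0.251. Oprm1 was at 3.63, 4.34 and 2.63 CPM in the wild-type libraries and 0.909, 0.746 and 0.461 CPM in those of the double knockout, lowest in replicate 3 as Sp8 was. Nearest to Vax1 were the palmitoyltransferase gene Zdhhc2 (0.0481) and the guidance gene Sema3a (0.0522), and nearest to Meis2 were the zinc-finger gene Scrt1 (0.0532) and the kinase gene Ulk3 (0.0573). The genes nearest to Scgn were Gm6314 (0.131) and Stac2 (0.162). These are descriptions over 6 libraries in 2 groups, in which many genes share the difference between genotypes.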

How the data were processed

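Total RNA libraries depleted of ribosomal RNA were made with a stranded kit, per the labels' protocols. The authors deposited 1 table of raw read counts per gene, with featureCounts and genome build GRCm39 named in the submitters' processing notes. The aligner, annotation release and strand settings are not given in the sources used here, so genes with overlapping exons are uncertain (looked up for the 10 genes, lists and markers). Genes were filtered with filterByExpr (minimum count 10, minimum total 15) and scaled by TMM. They were tested with edgeR 4.0.16 (quasi-likelihood, prior count 0.125, Benjamini-Hochberg over 23628 genes) in R 4.3.3. SE is the log2 fold change over the square root of F. CPM are mean ± SD. Floors cover counting error only, since reads carried no molecular identifiers. Lengths and overlaps came from GENCODE M21 (GRCm38), which held 94.1% of identifiers. The fit was tested on simulated counts. Groups and replicate numbers came from titles. Alternatives were DESeq2 1.42.0, DESeq2 size factors, total count scaling, limma-voom (limma 3.58.1), 2 other filters, a replicate block, a Y-linked covariate and leaving out each library. The 10 genes, lists and naming rule (called genes with the largest changes in each list, up to 4 per direction, mean of at least 1 CPM, and the 2 nearest in pattern) were chosen with earlier results of these data known. Th, Gad1, Gad2, Bcl11b, Foxp2, Foxp4, Pax6, Prok2, Prokr1, Meis3, Robo1, Dcx, Cir1, Platr26 and the markers named singly were named after their values were seen. Some genes of the lists are counted but not reported here.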

Additional observations from a re-analysis of the deposited data

How the results depend on the processing

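Leaving out any 1 library gave 309 to 749 called genes in place of 634, 2 to 5 of the 10 genes in place of 4, 0 to 3 of the paralogues in place of 2, and 3 to 9 of the migration genes in place of 8. The lowest count over all genes was without wild-type replicate 1 and the highest without double knockout replicate 3. Of the 10 genes, 2, Sp8 and Vax1, stayed called without double knockout replicate 2. DESeq2 called 1162 genes and 14 migration genes, the Y-linked covariate left 358, 5 of them in the migration list, and no filter gave 13 migration genes. For the paralogues, total count scaling and the Y-linked covariate left 0 and a filter at a mean of 1 CPM left 1. With 0 left, edgeR's unadjusted p under 0.05 in the reported fit was met by 4 lower paralogues. The total called stayed within 1.5 times in every setting for the bulb list and the neighbours of Dlx1, but the bulb genes called higher, 3 in the reported fit, were 1 with the Y-linked covariate or without wild-type replicate 1 or 2 and 5 without double knockout replicate 3. Total count scaling called 256 genes lower and 390 higher, against 317 and 317, and 3 migration genes lower and 4 higher. Without any 1 library, log2 fold changes ranged from -0.156 to 0.0794 for Prokr2 and from -0.0802 to 0.0488 for Tshz1, and the log2 ratio of Prokr2 to Tshz1 from -0.129 to 0.168. Prokr2 changed sign without wild-type replicate 1 (0.0424) or 3 (0.0189) or double knockout replicate 2 (0.0794), Tshz1 without double knockout replicate 3 (0.0488), and the log2 ratio of Prokr2 to Tshz1 without wild-type replicate 2 (-0.121) or double knockout replicate 1 (-0.0273) or 3 (-0.129). The cause of these changes was not tested. With the replicate block 690 genes and 4 of the 10 were called, and the log2 fold changes of Sp8, Scgn, Vax1 and Meis2 were -1.76, -1.47, -0.68 and -0.45. It changed no call among the 10. The labels do not say that same-numbered libraries are paired. Their deviations correlated by -0.0694, -0.0022 and 0.0018 over all tested genes and by 0.166, 0.115 and 0.104 over genes averaging 1 CPM or more, sex-linked ones left out. Scgn and Prokr2 have the lowest counts of the 10. The interval of Scgn is the widest, followed by those of Sp8 and Prokr2.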

Other observations

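Sp9 lies on the chromosome of Dlx1 and Dlx2, within 2 Mb of Dlx1 in GENCODE M21. Of 54 tested genes in that window, 7 were called, 4 lower and 3 higher, beside 2.68% of all tested genes, 1.34% in each direction. Without Dlx1, Dlx2 and the antisense gene Dlx1as, which overlaps Dlx1, 51 remained, with 1 lower and 3 higher. The lower one was Gad1, a gene of GABA synthesis, from 119.6 ± 5.01 to 43.1 ± 2.39 CPM (SD, n = 3, log2 fold change -1.47, SE 0.058). Metap1d, a mitochondrial methionine aminopeptidase gene near Dlx1, went up from 18.6 ± 1.21 to 29.7 ± 1.41 CPM (log2 fold change 0.68, SE 0.0761, edgeR adjusted p = 0.00234). The integrin gene Itga6 went up from 55.7 ± 5.20 to 84.1 ± 3.19 CPM (log2 fold change 0.59, SE 0.0712, edgeR adjusted p = 0.00328). Both remained called in all 14 alternative settings. The third was Platr26, a non-coding gene with a mean under 1 CPM. The median log2 fold change of the 51 genes was -0.0134.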
